A study of Homo sapiens with 4 samples.

Results

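PTX3 and 9 genes of the hyaluronan matrix were measured by RNA-Seq in hTERT RPE-1 cells, a human line from the retinal pigment epithelium immortalized with telomerase. The 10 members were found by their symbols (PTX3, HAS1, HAS2, HAS3, TNFAIP6, VCAN, CD44, CEMIP, CEMIP2 and HYAL2) among the 23459 genes listed in every library. All cells were wild type, were serum starved for 48 h in medium with 0.1% FBS, and then received 200 μM merbarone, a drug that inhibits the catalytic activity of DNA topoisomerase II. The groups were 4 h of merbarone (2 libraries) and 8 h of merbarone (2 libraries). Untreated cells were not analysed here, so each difference is between 2 times of treatment, and time of exposure cannot be told apart from time in low serum. PTX3 was chosen because its count was seen to be higher at 8 h at high abundance, so its difference between the times is described with no test. The other members were chosen by role, with earlier results of these data known, and were tested in the same fit.

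Hyaluronan is a long, unbranched sugar polymer that HAS1, HAS2 and HAS3 synthesize at the plasma membrane and extrude from the cell. It becomes a matrix when proteins bind it. Versican is anchored along the chain, and TNFAIP6 transfers heavy chains of inter-alpha-inhibitor onto it, which the multimeric pentraxin PTX3 can then bind together. CD44 holds the polymer at the cell surface, and CEMIP, CEMIP2 and HYAL2 take part in cutting it into shorter chains. In the eye, hyaluronan fills the vitreous and the matrix around the photoreceptors, next to the pigment epithelium.

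The authors deposited raw counts per gene, and library totals ranged from 8064450 to 10324697. Values below are TMM-normalized counts, that is, counts scaled to a common effective library size of 9586677, unless raw counts are named. The marker genes of the labelled tissue were unevenly present. MITF, a transcription factor of pigment cells, had 669 to 882 raw counts and OTX2, a transcription factor of the eye, had 132 to 193. RPE65, BEST1, RLBP1, LRAT, TYR and TYRP1, which mark the mature epithelium, had 0 to 7 raw counts in any library. KRT8 and KRT18, keratins of simple epithelia, had 1927 to 3966. CDH1 and EPCAM, the other simple epithelium markers, had at most 1 raw count in any library. VIM, an intermediate filament gene of mesenchymal and cultured cells, had 88366 to 91660. Of the blood cell markers, PTPRC, CD14 and LYZ had 0 to 8 raw counts and CD68, also a lysosomal gene, had 575 to 654, while the endothelial markers PECAM1, CDH5 and VWF had 0 to 5. The summed normalized counts of the 4 blood cell markers, nearly all CD68, went from 529.5 and 546.7 to 682.2 and 731.8, and CD68 rose (log2 fold change of 8 h against 4 h, log2FC, 0.39, edgeR adjusted p = 0.00298). Those of the 3 mesenchymal markers, nearly all VIM, ranged from 84318 to 85303 in the 4 h group and from 97748 to 117037 in the 8 h group. VIM rose (log2FC 0.36, edgeR adjusted p = 0.000623), COL1A1, a collagen gene, fell (log2FC −0.80, edgeR adjusted p = 9.43e-06) and CDH2, a cadherin gene, was not called (log2FC 0.09, edgeR adjusted p = 0.354). Of the simple epithelium markers, KRT18 fell (log2FC −0.51, edgeR adjusted p = 3.72e-05) and KRT8 was not called (log2FC 0.03, edgeR adjusted p = 0.798). The sums of the 4 markers, nearly all from these keratins, were 6588 to 7114 at 4 h and 5681 to 6174 at 8 h. Of 10 pigment epithelium markers 4 were tested and none was called, beside 38.8% of all tested genes. The log2FC were 0.18 (MITF), 0.19 (OTX2), 0.39 (PMEL, at 7 to 12 raw counts) and 0.62 (SERPINF1, at 22 to 30 raw counts). The sums of the 10 markers were 925.6 to 984.4 at 4 h and 1059 to 1139 at 8 h. The part of these markers in the results was not tested, and in bulk RNA fewer cells of a type and less RNA per cell cannot be told apart.

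PTX3 encodes the long pentraxin, a secreted pattern recognition protein that cells make under inflammatory signals such as IL-1 and TNF. TNFAIP6 is named after its induction by TNF and is often made beside PTX3. The 250 bases before the start of these genes are shown, from RefSeq on GRCh38.p14, since the first was among the most abundant transcripts and the second was near the detection limit in the same cells. Capitals mark the matches of a search on both strands for the letters of AP-1 (TGANTCA), of NF-kB (GGGA, any 4 bases, then CC) and of the CRE core (TGACG).
PTX3: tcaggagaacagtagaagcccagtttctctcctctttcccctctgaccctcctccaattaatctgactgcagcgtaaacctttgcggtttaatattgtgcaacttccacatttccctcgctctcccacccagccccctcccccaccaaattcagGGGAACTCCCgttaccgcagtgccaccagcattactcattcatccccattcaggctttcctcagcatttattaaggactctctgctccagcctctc
TNFAIP6: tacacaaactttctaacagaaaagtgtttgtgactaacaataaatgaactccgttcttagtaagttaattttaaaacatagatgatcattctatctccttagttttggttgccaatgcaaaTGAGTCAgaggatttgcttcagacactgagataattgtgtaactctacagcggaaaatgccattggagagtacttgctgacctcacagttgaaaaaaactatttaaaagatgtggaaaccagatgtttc
The PTX3 stretch lies at chr3:157436600-157436849 (plus strand) and the TNFAIP6 stretch at chr2:151357342-151357591 (plus strand). The PTX3 stretch held 1 match to the NF-kB letters, GGGAACTCCC, beginning 96 bases before the start, and none to the others. The TNFAIP6 stretch held 1 match to the AP-1 letters, TGAGTCA, beginning 129 bases before the start, and none to the others. Of 35116 promoters searched over the same length, 22.6% held the NF-kB letters, 6.57% those of AP-1 and 21.2% the CRE core. Promoters of 9 members were matched by gene identifier, all except HAS2. Among the other 7, the NF-kB letters also occurred before HAS3 (GGGATGCGCC) and VCAN (GGGAGCTGCC), and the CRE core before HAS1, VCAN, CEMIP and CEMIP2. In HAS1 the 2 matches overlapped on opposite strands as TGACGTCA, 69 bases before the start.

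PTX3 was 2.97-fold higher at 8 h, and its level per kilobase was among the highest of all genes. PTX3 (NCBI Gene 5806, chromosome 3, 157154639 to 157161422, plus strand, GRCh37) had 9767 and 8709 normalized counts in replicates 1 and 2 after 4 h. After 8 h it had 30299 and 24531. Both 8 h libraries were above both 4 h libraries. The means were 9238 ± 748.1 at 4 h and 27415 ± 4079 at 8 h (SD, n = 2 each), and the fitted log2FC was 1.57 (standard error 0.09). The 8 h replicates were farther apart than the 4 h replicates. As a share of raw counts, PTX3 took up 0.105% and 0.0943% of the 4 h libraries and 0.306% and 0.245% of the 8 h libraries. Ranked per kilobase of exon among the 12289 tested genes with a known length, it was in place 26 and 29 at 4 h and in place 8 and 13 at 8 h. Among the 12559 tested genes, its log2FC ranked 31, and among the 2091 with a mean of at least 1000 normalized counts it ranked 2. These ranks describe the value for which the gene was chosen.

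**Figure D1:**
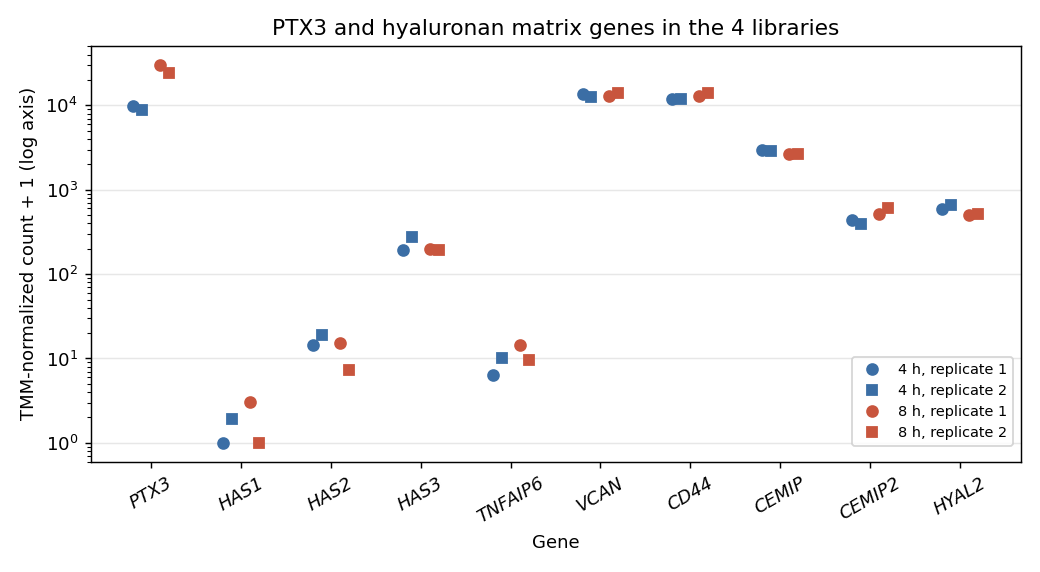
TMM-normalized counts of the 10 members (plus 1, log axis) in the 2 libraries at 4 h (blue) and the 2 at 8 h (red), with circles for replicate 1 and squares for replicate 2. PTX3 goes from 9767 and 8709 to 30299 and 24531, VCAN and CD44 stay between 12037 and 14213, and HAS1, HAS2 and TNFAIP6 stay below 20.

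The PTX3 gene lies wholly inside the span of VEPH1, which is on the opposite strand, and 71 of its 1884 exonic bases (3.77%) overlap a VEPH1 exon. VEPH1 had 1161 and 1210 raw counts after 4 h, then 965 and 840 after 8 h, against 9607 to 29626 for PTX3. Its log2FC was −0.08 (standard error 0.08, edgeR adjusted p = 0.502). The sources do not state whether reads were counted by strand, and counts on overlapping exons are uncertain to that extent. Over 9378 other genes with a mean of at least 100 normalized counts, the 5 whose centred log2-CPM over the 4 libraries lay nearest to PTX3 were DNAJB9, SLC7A11, NAV3, HK2 and TGIF1. Their Euclidean distances to PTX3 were 0.18, 0.18, 0.22, 0.25 and 0.25. DNAJB9 encodes a chaperone of the endoplasmic reticulum, SLC7A11 a cystine transporter, HK2 a hexokinase and TGIF1 a transcriptional repressor. DNAJB9 had 216.3 and 199.4 normalized counts (4 h) versus 603.4 and 570.3 (8 h), and SLC7A11 had 703.6 and 567.5 in the 4 h group against 1828 and 1644 in the 8 h group. The distance weighs the same 4 libraries that show the difference in PTX3 and is given without a test.

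Per kilobase of exonic sequence, PTX3 was the highest member at both times. Its level was 4904 normalized counts per kilobase at 4 h and 14552 at 8 h, where CD44 had 1205 and 1361, VCAN 893.6 and 924.4, CEMIP 385.1 and 347.3, and HYAL2 141.2 and 114.2. HAS3 and CEMIP2 followed, with 45.2 and 44.6 per kilobase at 4 h. These 2 neighbours overlapped at 4 h, with HAS3 between 37.1 and 53.3 and CEMIP2 between 42.1 and 47.1, whereas at 8 h CEMIP2 (55.3 to 65.3) lay above HAS3 (36.6 to 37.6). TNFAIP6 (4.58), HAS2 (3.73) and HAS1 (0.203) came last at 4 h, and the libraries of the first 2 overlapped there. The lengths are unions over all annotated isoforms. Bowtie in this version aligns without gaps, so reads that span a splice junction are not placed.

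The 9 other members were compared between the times with edgeR's quasi-likelihood test on the 12559 genes whose CPM, the count scaled to library size, exceeded 1 in 2 or more libraries. Of these 9, 7 passed the filter, and HAS1 and TNFAIP6 did not. At a Benjamini-Hochberg adjusted p below 0.05, CEMIP2 and CD44 were higher at 8 h, HYAL2 was lower, and 4 did not pass. The same threshold called 38.8% of all tested genes, 19.9% higher and 18.8% lower. None of the 7 reached the study's fold threshold, an absolute log2FC above 1, which 5.33% of all tested genes reached with the same adjusted p (1.45% higher and 3.88% lower). That count was 0 as well at an unadjusted p below 0.05, with Limma-Voom and with DESeq2. The libraries of the 2 times did not overlap in 4 of the 7 members and in 69.7% of all tested genes. The median log2FC of the 7 was −0.15, beside −0.002 for all tested genes. Scaling by library size alone moved the median of all genes to −0.108 and the split of calls over all genes from 2500 higher and 2367 lower to 1698 and 3289. Under that scaling 1 member was higher and 2 were lower.

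**Figure D2:**
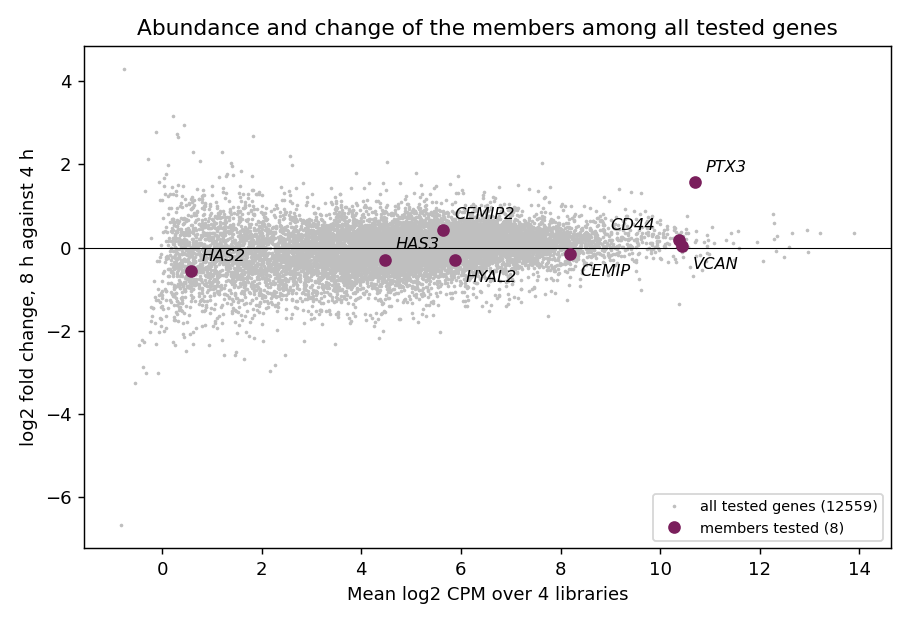
Mean log2-CPM over the 4 libraries (horizontal axis) and log2FC of 8 h against 4 h (vertical axis) of the 12559 tested genes (grey points) and of the 8 tested members (purple points with names). PTX3 lies at 1.57 among the most abundant genes, and the other 7 members lie between −0.57 (HAS2) and 0.43 (CEMIP2).

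The synthases were low at both times, and none was called. HAS3 (chromosome 16, 69139556 to 69152622, plus strand), the highest synthase per kilobase, had 192.9 and 277.4 normalized counts after 4 h, then 195.3 and 190.1 after 8 h. The times overlapped, and 1 of the 4 h libraries was as low as those of 8 h. Its log2FC was −0.29 (standard error 0.16, edgeR adjusted p = 0.172), with a 95% interval from −0.62 to 0.05. The value rested on replicate 2 at 4 h. Without it the log2FC was 0.00, and without replicate 1 at 4 h it was −0.53 (edgeR adjusted p = 0.0348). Here and wherever 1 library is left out, its group holds a single library, which is assumed to vary like the pair of the other time. HAS3 shares 365 exonic bases with CHTF8, a gene of the opposite strand that fell (log2FC −0.45, edgeR adjusted p = 0.000298), and the part of such reads in HAS3 was not tested.

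HAS2 (chromosome 8, 122624356 to 122653680, minus strand), the main synthase of many mesenchymal cells, had 15 and 20 raw counts (4 h) versus 14 and 5 (8 h). The times overlapped in normalized counts. At this depth a difference was not detectable, with a log2FC of −0.57 (edgeR, standard error 0.47, adjusted p = 0.361) and a 95% interval from −1.55 to 0.42. Without replicate 1 at 8 h the log2FC was −1.33 and without replicate 2 at 8 h it was −0.14, neither of them called (edgeR adjusted p = 0.118 and 0.86). HAS1 (chromosome 19, 52216365 to 52227244, minus strand) had 0 and 1 raw counts in the 4 h group against 2 and 0 in the 8 h group. With these counts no fold was calculated. A count of 0 allows up to 3 counts in a library as a one-sided limit, and the upper end of the exact two-sided 95% Poisson interval was 3.69 counts. Both limits cover counting error only.

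TNFAIP6 (chromosome 2, 152214106 to 152236560, plus strand), the enzyme that carries heavy chains to hyaluronan, had 6 and 10 raw counts after 4 h, then 13 and 7 after 8 h. Its exact 95% Poisson intervals overlapped in all libraries, from 2.20 to 13.1 counts in the lowest and from 6.92 to 22.2 in the highest. The CPM was above 1 in 1 library, so the gene was not among those tested. When all 16440 genes with a count were tested, its log2FC was 0.62 (standard error 0.61, edgeR adjusted p = 0.514). Per kilobase, TNFAIP6 stayed between 3.41 and 8.43 in libraries where PTX3 was between 4623 and 16082.

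Versican and CD44, the binding partners of the polymer in the matrix and on the cell, had the highest levels per kilobase among the 10 members after PTX3, with log2FC of 0.05 and 0.17. VCAN (chromosome 5, 82767437 to 82878122, plus strand) encodes the large chondroitin sulfate proteoglycan versican. It had 13618 and 12615 normalized counts (4 h) versus 13061 and 14076 (8 h), and the times overlapped. Its log2FC was 0.05 (standard error 0.07, edgeR adjusted p = 0.606), with a 95% interval from −0.10 to 0.19. The log2FC was −0.06 with library size alone and −0.13 with offsets that remove the trend with mean log2-CPM.

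CD44 (chromosome 11, 35160429 to 35253949, plus strand), the main cell-surface receptor of hyaluronan, had 12037 and 12054 normalized counts in the 4 h group against 12977 and 14213 in the 8 h group. Both 8 h libraries were above those of 4 h. The log2FC was 0.17 (standard error 0.07, edgeR adjusted p = 0.0489), 1.13-fold, and did not reach the fold threshold. The call was lost with library size alone (log2FC 0.07, adjusted p = 0.448), with DESeq2 (0.0972), with a CPM filter of 2 (0.061) and with offsets against the abundance trend, where the log2FC was 0.00 (0.99). It was also lost without replicate 1 at 4 h (adjusted p = 0.25), replicate 2 at 4 h (0.216) or replicate 2 at 8 h (0.228). Counts per gene do not separate the splice forms of CD44 or VCAN.

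Among the genes of hyaluronan cleavage, CEMIP2 was called higher and HYAL2 lower, and CEMIP was not called. Of all tested genes, 19.9% were called higher and 18.8% lower. CEMIP2 (chromosome 9, 74298282 to 74431606, minus strand), a transmembrane protein that cuts hyaluronan at the cell surface, had 436.1 and 389.8 normalized counts after 4 h, then 511.4 and 603.9 after 8 h, and both 8 h libraries were above both 4 h libraries. It rose 1.35-fold, with a log2FC of 0.43 (edgeR, standard error 0.11, adjusted p = 0.00446). The adjusted p stayed below 0.05 in all 8 alternatives of test, scaling, filter or block, with log2FC from 0.32 to 0.43. Without replicate 2 at 4 h it was 0.0841, at a log2FC of 0.35.

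HYAL2 (chromosome 3, 50355221 to 50360213, minus strand) encodes a hyaluronidase that is tethered to the membrane by a lipid anchor. It had 589.6 and 659.1 normalized counts (4 h) versus 498.1 and 511.9 (8 h). Both 8 h libraries were below both 4 h libraries. It fell with a log2FC of −0.31 (edgeR, standard error 0.10, adjusted p = 0.0199), which is 1.24-fold lower. The call was lost with DESeq2 (adjusted p = 0.0878) and without replicate 2 at 4 h (adjusted p = 0.232). HYAL2 shares 11.5% of its exonic bases with TUSC2 on the same strand, whose log2FC was 0.01 (edgeR adjusted p = 0.977).

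CEMIP (chromosome 15, 81071684 to 81244117, plus strand), a secreted hyaluronan-binding protein needed for its breakdown in fibroblasts, had 2983 and 2886 normalized counts in the 4 h group against 2649 and 2644 in the 8 h group. Both 8 h libraries were below those of 4 h, but the log2FC of −0.15 (standard error 0.07) did not pass the test (edgeR adjusted p = 0.115). It passed with library size alone (log2FC −0.26, adjusted p = 0.00939) and with offsets against the abundance trend (−0.29, adjusted p = 0.004). CEMIP shares 224 exonic bases with MESD on the opposite strand, which fell (log2FC −0.51, edgeR adjusted p = 0.000211). The part of such reads in CEMIP was not tested.

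The pathway around the members was described with 10 lists of 98 genes, written from known roles, with earlier results of these data known. Of these, 60 were tested, and 21 were higher and 5 lower at 8 h by edgeR's adjusted p below 0.05, where 19.9% of all tested genes were higher and 18.8% lower. With library size alone 15 were higher and 8 lower, beside 1698 higher and 3289 lower of all 12559 tested genes. The median log2FC of the 60 was 0.17, beside −0.002 for all tested genes. Of the 60, HK2, HMMR and TNFRSF1B (3 genes) passed the fold threshold, beside 5.33% of all tested genes. Without replicate 1 at 8 h, NPTX1 (log2FC 0.95, edgeR adjusted p = 0.0454) and CHPF2 (0.0157) passed as well, and without replicate 2 at 8 h UAP1 (0.00152) and UGDH (0.00796) did. Lists are described by counts and medians, without a test of the list.

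Enzymes that supply the sugar nucleotides UDP-glucuronic acid and UDP-N-acetylglucosamine, from which hyaluronan is built, were all measured. Of the 11, 3 were higher and 1 lower, beside 19.9% and 18.8% of all tested genes. Their median log2FC was 0.06, beside −0.002 for all tested genes. HK2, a hexokinase, had 412.8 and 352.7 normalized counts after 4 h, then 1026 and 971.6 after 8 h, and rose with a log2FC of 1.38 (edgeR, standard error 0.10, adjusted p = 4.86e-09). HK1, another hexokinase, rose with a log2FC of 0.31 (edgeR adjusted p = 0.00194). It lost the call with offsets against the abundance trend (adjusted p = 0.0853) and without replicate 1 at 4 h (0.0551). The third that rose was GFPT1, named after its values were seen, which controls entry into the hexosamine pathway (log2FC 0.82, edgeR adjusted p = 5.77e-07). UGP2, also named after its values were seen, makes UDP-glucose and fell (log2FC −0.37, edgeR adjusted p = 0.00255). UGDH, which oxidizes UDP-glucose to UDP-glucuronic acid, had 996.1 and 962.8 normalized counts (4 h) versus 1208 and 1011 (8 h), and did not pass (log2FC 0.18, edgeR adjusted p = 0.124). UAP1, which makes UDP-N-acetylglucosamine, had a log2FC of 0.20 (edgeR adjusted p = 0.0566), and GPI, a glycolytic isomerase, one of −0.04 (edgeR adjusted p = 0.766).

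**Figure D3:**
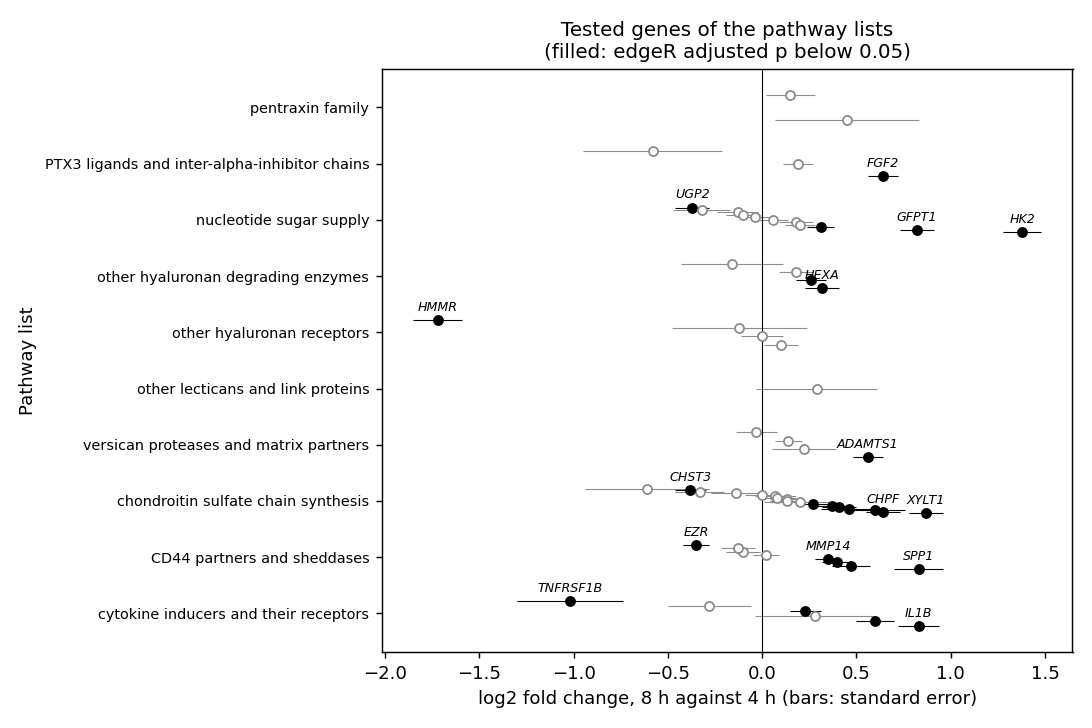
Log2FC of 8 h against 4 h (horizontal axis, bars are standard errors) of the 60 tested genes in the 10 pathway lists (vertical axis), with filled points where edgeR's adjusted p was below 0.05. HK2 (1.38) lies farthest to the right and HMMR (−1.72) farthest to the left, and most other genes lie within 1 of 0.

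Most relatives and ligands of PTX3 had no count. Of 6 other pentraxin genes, CRP, APCS, PTX4 and NPTX2 had no count in any library. NPTXR (log2FC 0.15, edgeR adjusted p = 0.372) and NPTX1 (0.45, adjusted p = 0.376), both known from neurons, did not pass, at an unadjusted p below 0.05 or with Limma-Voom or DESeq2 either. Of 16 genes listed for PTX3 ligands and the inter-alpha-inhibitor family, 10 had no count and 3 were tested. FGF2, a growth factor that PTX3 binds and holds from its receptors, had 3878 and 3163 normalized counts in the 4 h group against 5433 and 5559 in the 8 h group, and rose with a log2FC of 0.64 (edgeR, standard error 0.08, adjusted p = 8.51e-06). The heavy chain gene ITIH3 had 14 to 43 raw counts (log2FC −0.58, edgeR adjusted p = 0.22). ITIH1, ITIH2, ITIH4, ITIH5 and AMBP, also in this list, had 0 to 7 raw counts.

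Among other receptors of hyaluronan, 1 of the 4 tested was lower and none was higher, with a median log2FC of −0.06. Of all tested genes, 18.8% were lower and 19.9% higher. HMMR, a hyaluronan-binding protein that is also a spindle protein of dividing cells, had 509.7 and 443.3 normalized counts (4 h) versus 154.4 and 134.2 (8 h), and fell with a log2FC of −1.72 (edgeR, standard error 0.13, adjusted p = 1.12e-08). LAYN (log2FC 0.10, edgeR adjusted p = 0.383), a membrane lectin, and TLR4 (0.00, adjusted p = 0.991) and TLR2 (−0.12, adjusted p = 0.813), innate immune receptors, did not pass. LYVE1, STAB1 and STAB2, receptors of lymphatic and sinusoidal endothelium, had at most 1 count in any library. Of the other degrading enzymes, 2 of 4 tested were higher and none lower, beside the same shares of all tested genes. HEXA, which encodes a lysosomal enzyme chain, rose (log2FC 0.32, edgeR adjusted p = 0.00741). Its call was lost with library size alone (adjusted p = 0.0632), with offsets against the abundance trend (0.0602), without replicate 1 at 4 h (0.142) and without replicate 1 at 8 h (0.0556). GUSB, a lysosomal glucuronidase, had a log2FC of 0.18 (edgeR adjusted p = 0.119), and the hyaluronidase HYAL3 one of −0.16 (edgeR adjusted p = 0.66).

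Genes that build or cut the versican aggregate were in part higher. Of 19 genes for chondroitin sulfate, the sugar chains that versican carries, 17 were tested, with a median log2FC of 0.13. Of these, 7 were higher and 1 lower, beside 19.9% and 18.8% of all tested genes. CHPF, a chondroitin polymerizing factor, had 6717 and 6421 normalized counts in the 4 h group against 8914 and 11514 in the 8 h group (log2FC 0.64, standard error 0.09, edgeR adjusted p = 1.93e-05). CHST3, a sulfotransferase, fell (log2FC −0.38, edgeR adjusted p = 0.000696), with 4179 and 4330 after 4 h, then 3040 and 3485 after 8 h. The polymerases CHPF2 (log2FC 0.13, edgeR adjusted p = 0.269) and CHSY1 (0.13, adjusted p = 0.264) did not pass. Of 10 versican proteases and matrix partners, 4 were tested and 1 was higher. This was ADAMTS1, a protease that cuts versican, with 3691 and 3118 normalized counts (4 h) versus 5041 and 4971 (8 h) (log2FC 0.56, standard error 0.08, edgeR adjusted p = 2.47e-05). FBN1, the fibrillin of microfibrils that versican binds, had a log2FC of 0.14 (edgeR adjusted p = 0.142), and the proteases ADAMTS15 and ADAMTS5 had −0.03 (adjusted p = 0.865) and 0.22 (adjusted p = 0.328). Of 7 other lecticans and link proteins, which hold proteoglycans on hyaluronan, HAPLN3 alone was tested (log2FC 0.29, edgeR adjusted p = 0.502, and not called by Limma-Voom, DESeq2 or an unadjusted p below 0.05). The other 6 had 0 to 2 raw counts.

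Of 8 partners and sheddases of CD44, 4 were higher and 1 lower, beside 19.9% and 18.8% of all tested genes. Their median log2FC was 0.18. MMP14, a membrane protease that can shed CD44, had 12261 and 12531 normalized counts in the 4 h group against 15268 and 16385 in the 8 h group (log2FC 0.35, standard error 0.07, edgeR adjusted p = 0.000357). With offsets against the abundance trend its log2FC was 0.17 (edgeR adjusted p = 0.0428). EZR, which links the CD44 tail to actin, fell from 7968 and 7951 at 4 h to 6341 and 6176 at 8 h (log2FC −0.35, standard error 0.07, edgeR adjusted p = 0.000484). MSN, a close relative of EZR with the same role, had a log2FC of 0.02 (edgeR adjusted p = 0.864), while NF2, which encodes the related tumour suppressor merlin, rose (log2FC 0.40, edgeR adjusted p = 0.000468). Of 7 cytokine inducers of PTX3 and their receptors, 6 were tested, and 3 were higher and 1 lower, beside the same shares of all tested genes. IL1B, a cytokine gene, had 328.4 and 290.1 normalized counts after 4 h, then 563.5 and 539.2 after 8 h (log2FC 0.83, standard error 0.11, edgeR adjusted p = 7.48e-06). IL1A, another IL-1 gene, named after its values were seen, had 22 to 37 raw counts and did not pass (log2FC 0.28, edgeR adjusted p = 0.507). IL1RAP, a chain of the IL-1 receptor, rose (log2FC 0.60, edgeR adjusted p = 0.000119), and the ligand-binding chain IL1R1 had a log2FC of −0.28 (edgeR adjusted p = 0.332). TNF had no count in any library. TNFRSF1A rose (log2FC 0.23, edgeR adjusted p = 0.0298), a call lost in 3 of 8 alternatives and without 3 of the 4 libraries. TNFRSF1B, at 23 to 64 raw counts, fell with a log2FC of −1.02 (edgeR adjusted p = 0.00702), a call lost with DESeq2 (adjusted p = 0.0701) and without replicate 2 at 4 h (0.0829).

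The size of the PTX3 difference was recalculated under each alternative, as a description. It ranged from 1.39 to 1.57 over the 8 alternatives of test, scaling, filter or block, and from 1.41 to 1.71 with 1 library left out in turn. The lowest value came with offsets that remove the trend with mean log2-CPM. Replicate 1 at 8 h was the highest library, and without it the log2FC was 1.41, while without replicate 2 at 8 h it was 1.71. The SD of log2 normalized counts between replicates, pooled over the times, was 0.17. The standard error with all libraries, 0.09, rests in part on a spread shared between genes. It does not measure the spread of PTX3 alone.

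**Figure D4:**
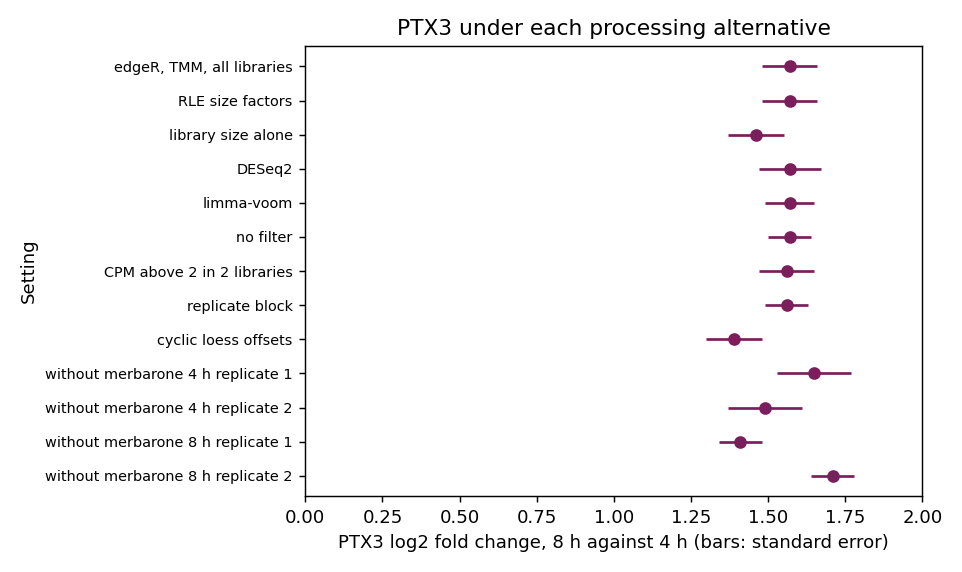
PTX3 log2FC of 8 h against 4 h (horizontal axis, bars are standard errors) for edgeR with TMM on all libraries and for each of 12 alternatives (vertical axis). All values lie between 1.39 and 1.71. The bars rest in part on a spread shared between genes.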

How the data were processed

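RNA was sequenced from 4 libraries of RPE-1 cells, made with a stranded polyadenylated RNA protocol from 150 ng of total RNA. The authors mapped reads to hg19 with Bowtie 1.2.0, discarded those that mapped more than once, and deposited gene-level raw counts, not normalized and 1 file per library. The gene annotation, the counting tool and the use of strand are not given in the sources used here. Replicates are biological replicates per the paper's methods.

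From these counts, the 12559 of 23459 genes whose CPM exceeded 1 in 2 or more libraries were normalized by TMM and tested at 8 h against 4 h with edgeR 4.0.16 (quasi-likelihood, R 4.3.3), time being the only term. Adjusted p-values are Benjamini-Hochberg over all tested genes. The standard error is the size of the log2FC divided by the square root of F. Limma-Voom (limma 3.58.1), DESeq2 1.42.0, library size alone, RLE factors, other filters, the replicate number as a block, cyclic loess offsets and leaving out each library were alternatives. The scripts were tested on simulated counts. Members, lists and tests were chosen with earlier results of these data known. Named genes are the members, the 4 most abundant tested genes of each list, list genes past both thresholds, and the 5 nearest to PTX3. Others are marked. Some genes that the rule names are not reported here. Symbols came from RefSeq (GRCh38.p14), positions and lengths from GENCODE on GRCh37, the assembly of hg19. Protein sequences were not analysed here. With 2 libraries per time, the smallest two-sided p of an exact permutation test is 0.333, so the spread that edgeR shares between genes carries the adjusted p-values. Library totals were 8064450 to 10324697 counts. Intervals on low counts are exact Poisson and cover counting error only.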

Additional observations from a re-analysis of the deposited data

How the results depend on the processing

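The PTX3 log2FC was 1.39 with cyclic loess offsets and between 1.41 and 1.71 with 1 library left out. Of the 7 other tested members, 3 passed in edgeR, 1 with DESeq2, 0 with the fold threshold (0 also at an unadjusted p below 0.05) and 0 to 3 with 1 library left out. The 0 came without replicate 2 at 4 h, where 1 passed at an unadjusted p below 0.05. Of the pathway genes, 26 passed, 3 with the fold threshold and 18 to 29 with 1 library left out. Over all tested genes, 4867 passed, 669 with the fold threshold and 3114 to 4828 with 1 library left out, the lowest without replicate 1 at 4 h (3114) or replicate 2 at 4 h (3141). The cause was not tested. With DESeq2, 3290 of all tested genes passed, 20 of them pathway genes. With the replicate number as a block, 5493 genes passed, 29 of them pathway genes and 3 members, UAP1 became called (log2FC 0.19, edgeR adjusted p = 0.0216), and the PTX3 log2FC was 1.56. Deviations of same-numbered libraries correlated at 0.048, and the labels do not say that the numbers pair the libraries.

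Over the 43 genes followed under the alternatives, signs changed in genes that were not called and in CD44. Genes named for their values, overlapping genes and cell type markers were not followed. With library size alone the log2FC was −0.06 (VCAN), −0.01 (LAYN), −0.10 (TLR4) and −0.09 (MSN). With Limma-Voom and with a CPM filter of 2, TLR4 had 0.00 and −0.01. With cyclic loess offsets it was −0.13 (VCAN), 0.00 (CD44), 0.01 (HYAL3), −0.01 (LAYN), 0.09 (TLR2), −0.03 (FBN1), −0.01 (CHPF2) and −0.15 (MSN). With 1 library left out the log2FC ran from −0.53 to 0.00 (HAS3), −0.01 to 0.10 (VCAN), −0.20 to 0.95 (NPTX1), −0.10 to 0.03 (GPI), −0.41 to 0.13 (HYAL3), −0.01 to 0.20 (LAYN), −0.07 to 0.07 (TLR4), −0.48 to 0.12 (TLR2), −0.31 to 0.77 (HAPLN3), −0.18 to 0.13 (ADAMTS15), −0.01 to 0.25 (CHPF2) and −0.02 to 0.05 (MSN). Of 515 values of single genes under alternatives, 448 kept their direction and their side of the threshold.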
